A study of Homo sapiens with 12 samples.

Results

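The 10 antioxidant defence genes CAT, SOD1, SOD2, GPX1, GPX4, PRDX3, PRDX5, TXN2, TXNRD1 and NFE2L2 were chosen by name and taken as genes, with their transcript counts summed, and as the 136 transcripts annotated to them, of 61860 genes and 251121 transcripts in all. A count in at least 1 library was recorded for 118 of these transcripts, and all 10 genes passed the filter on low counts in every comparison. RNA sequencing was performed on 12 libraries of HEK293 Flp-In T-REx cells, a human embryonic kidney line with a single integration site for inducible transgenes. All libraries carried an inducible RNAi against endogenous PGC-1α (PPARGC1A), a transcriptional co-activator with an RNA-binding serine-arginine-rich (RS) domain, together with a FLAG-tagged PGC-1α resistant to that RNAi. The resistant protein was full length in the WT-res line and lacked the RS domain in the ΔRS-res line. Doxycycline was given at 1 µg/ml for 6 days in both lines, and each line was expanded from an individually selected colony, so that the RS deletion and any other difference between the colonies cannot be told apart. Each line was sequenced as whole-cell RNA from 1 well and as cytoplasmic RNA from 6 pooled wells, with 3 replicates each from consecutive passages, and the p-values cover only the spread between such passages. The comparison of the lines asks which RNAs depend on the RS domain in total or in the cytoplasm, and the comparison of the fractions asks how far each RNA is enriched in the cytoplasm.

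Superoxide and hydrogen peroxide are by-products of respiration and are cleared by a relay of enzymes. SOD1 in the cytosol and SOD2 in the mitochondrial matrix turn superoxide into hydrogen peroxide, which is removed by CAT in peroxisomes, by the glutathione peroxidases GPX1 and GPX4 and by the peroxiredoxins PRDX3 and PRDX5. Oxidised PRDX3 and PRDX5 are recycled by thioredoxins, TXN2 in mitochondria. TXNRD1 is the reductase that feeds electrons from NADPH to thioredoxin in the cytosol. NFE2L2 encodes NRF2, the transcription factor that binds antioxidant response elements and is marked for degradation by KEAP1 with the CUL3 ubiquitin ligase. PGC-1α is known as an inducer of several of these genes. The study, however, took the promoter of CAT to be independent of PGC-1α. It found CAT transcripts neither bound by PGC-1α nor altered when PGC-1α was depleted.

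The libraries held 90333190 to 144628005 expected counts. NEAT1 and KCNQ1OT1, nuclear RNAs, were lower in the cytoplasm in all 6 same-numbered pairs and MALAT1 in 5 of 6, while the mRNAs GAPDH, EEF1A1 and RPLP0 were lower in 0 of 6. Genes of the mitochondrial genome took 1.92% to 2.65% of the counts of the whole-cell libraries and 0.0919% to 0.328% of the cytoplasmic ones. The whole-cell library labelled WT-res replicate 3 went against its label. DDX19B, an RNA helicase gene, was at 0.204 CPM there, against 12.1 to 15.2 in the other 5 WT-res libraries and 0.215 to 0.352 in ΔRS-res. CPM are counts scaled to the library's total after TMM adjustment, which sets the typical gene equal between libraries. SDHA was at 327.7 CPM in that library, against 68.0 to 77.2 and 325.6 to 382.3. Differences between the lines in whole-cell RNA are therefore also given without that library. PPARGC1A was at 552.0 to 682.5 CPM in the other 5 WT-res libraries, at 487.2 CPM in this one and at 295.6 to 486.2 CPM in ΔRS-res. Its reads come from the transgene and the endogenous gene alike, so that these counts do not check the deletion. Of the HEK293 genes examined, NEFL stood at 182.5 to 372.2 CPM, PAX2 and LHX1 at 1.64 to 5.82 CPM and NEFM at 0.258 to 0.694 CPM, and of the markers of other cell types, COL1A1 was at 2.98 to 6.64 CPM, DES had at most 114 counts, ALB and PECAM1 at most 15, and PTPRC, CD3E and HBB at most 4.

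Per unit of transcript length, the members spanned a wide range in WT-res cytoplasm. SOD1 was the most abundant at 400.6 ± 39.4 TPM (length-scaled share of a library's transcripts; SD, n = 3), followed by GPX4 at 346.8 ± 18.6 and PRDX3 at 310.5 ± 33.0. TXNRD1 (112.6 ± 7.55), GPX1 (108.6 ± 7.08), PRDX5 (100.6 ± 14.1) and SOD2 (86.3 ± 5.87) formed a middle group, and TXN2 (59.8 ± 3.09) and NFE2L2 (59.3 ± 0.993) came before CAT at 19.6 ± 0.522. Libraries of neighbouring genes in this order overlapped, with the exceptions of PRDX3 over TXNRD1, SOD2 over TXN2 and NFE2L2 over CAT. In ΔRS-res cytoplasm TXN2 stood at 72.7 ± 1.91 and NFE2L2 at 43.5 ± 2.48, and these did not overlap. All other levels are in CPM, which are not corrected for length and are scaled within a fraction.

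NFE2L2 was the member with the largest difference between the lines. In whole-cell RNA it was at 60.9, 75.8 and 55.2 CPM in WT-res replicates 1 to 3, against 39.5, 41.7 and 41.0 in ΔRS-res. In the cytoplasm it was at 98.7, 101.3 and 103.9 CPM in WT-res, against 70.3, 69.6 and 71.7 in ΔRS-res. Every ΔRS-res library was below every WT-res library in both fractions, and the cytoplasmic replicates of each line lay within a few CPM of each other. The log2 fold change of ΔRS-res over WT-res in the 6 cytoplasmic libraries was -0.52 (SE 0.0625, adjusted p = 0.00758, edgeR quasi-likelihood test), so that NFE2L2 fell in the ΔRS-res cytoplasm and was the only member called. Lower calls took 0.944% of the 25946 genes tested there, and calls in either direction 1.51%. That call was lost without ΔRS-res replicate 1 (adjusted p = 0.0718), without ΔRS-res replicate 2 (0.0535) or without WT-res replicate 3 (0.0574), at log2 fold changes of -0.52, -0.52 and -0.50. In these bulk libraries fewer cells expressing a gene and less RNA per cell cannot be told apart.

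In whole-cell RNA the log2 fold change of NFE2L2 was -0.65 (SE 0.12), which missed the threshold by edgeR with all 6 libraries (adjusted p = 0.211). No gene of 26794 passed there (0.0%), with 3369 genes at an unadjusted p under 0.05 and 1054 (3.93%) called by DESeq2. Leaving out the library labelled WT-res replicate 3, the difference was -0.75 (SE 0.1, adjusted p = 0.0143), with 2.06% of genes called and 1.17% called lower. Whole-cell libraries of the same replicate number deviated together in all 3 pairs (correlations of 0.57, 0.578 and 0.692). WT-res replicate 2 and ΔRS-res replicate 1 did so almost as much (0.524), so numbers 1 and 2 were not clearly separated. The replicate number was also used as a block, keeping the library labelled WT-res replicate 3. The log2 fold change of NFE2L2 was then -0.64 (SE 0.0841, adjusted p = 0.0254, edgeR), with 7.95% of genes called. The difference between the fractions in this effect was 0.11 on the log2 scale (SE 0.132, adjusted p = 1.0, edgeR interaction term), or 0.20 (SE 0.113, adjusted p = 0.887) leaving out the same library.

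**Figure D1:**
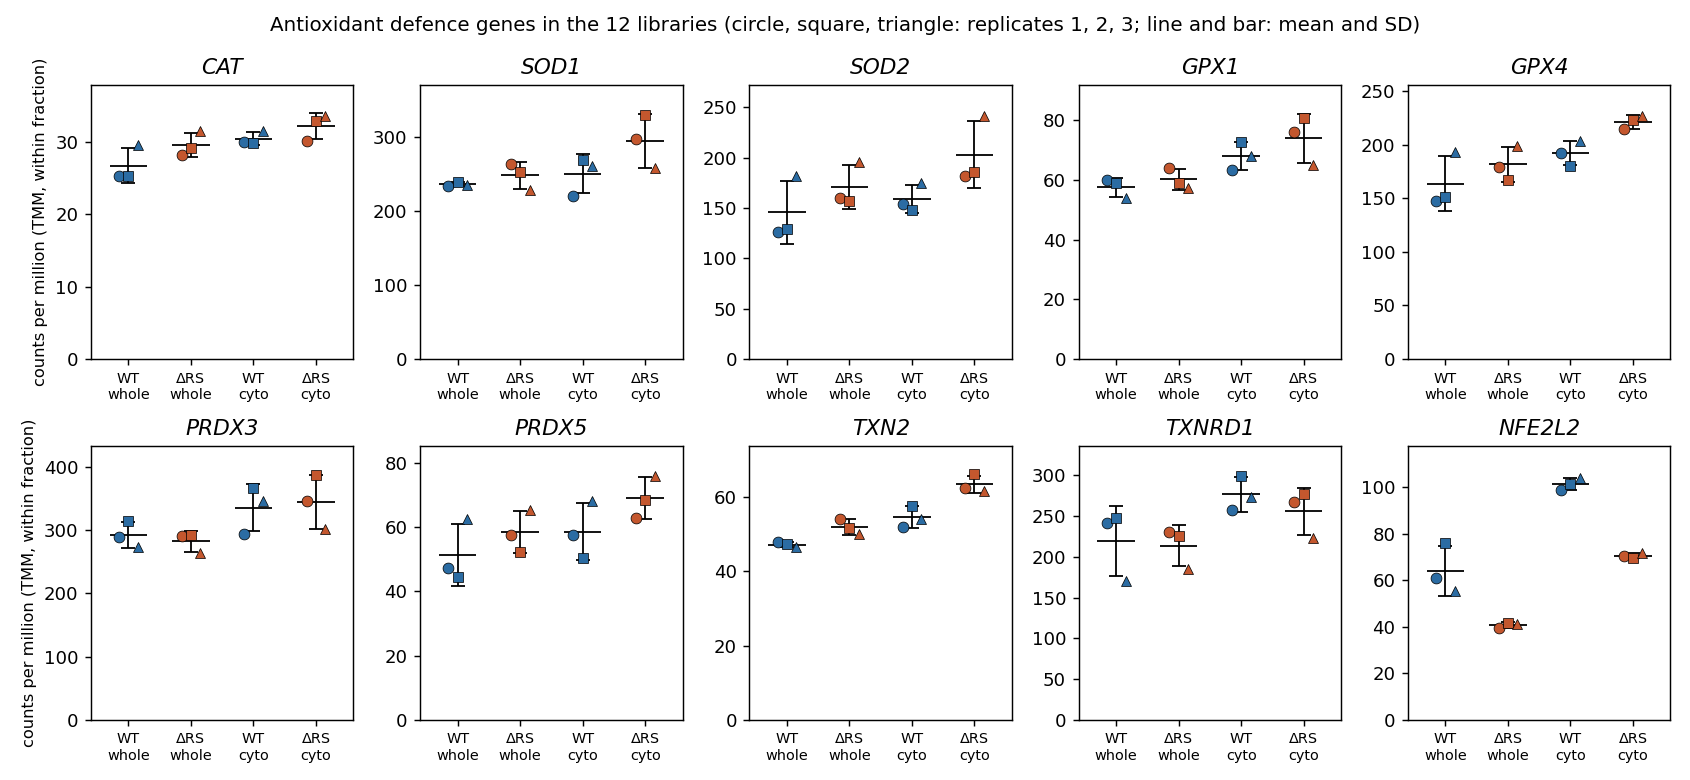
Level of each gene in CPM, scaled within whole-cell and within cytoplasmic libraries, in the 12 libraries; circles, squares and triangles are replicates 1, 2 and 3, and lines with bars are means and SD of 3. For NFE2L2 the ΔRS-res libraries (orange) at 39.5 to 41.7 and 69.6 to 71.7 CPM lie below all WT-res libraries (blue) of the same fraction, and for SOD2 and PRDX5 replicate 3 is the highest of its group throughout.

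The superoxide dismutases did not pass the test in all 6 libraries of either fraction. SOD2 (chr6:159669069-159762529, minus strand) was at 125.7, 129.5 and 182.0 CPM in WT-res whole-cell replicates 1 to 3, against 159.9, 156.7 and 195.7 in ΔRS-res. In the cytoplasm SOD2 was at 154.1, 148.2 and 174.8 CPM in WT-res, against 182.1, 185.8 and 241.0 in ΔRS-res. The groups overlapped in whole-cell RNA through WT-res replicate 3 alone and did not overlap in the cytoplasm. The log2 fold change of SOD2 was 0.23 (SE 0.16, adjusted p = 0.634, edgeR) in whole-cell RNA, 0.42 (SE 0.106, adjusted p = 0.102) without that library, and 0.35 (SE 0.123, adjusted p = 0.327) in the cytoplasm. SOD1 (chr21:31659666-31668931, plus strand) was at 234.0, 238.8 and 235.4 CPM in WT-res, against 263.1, 252.7 and 228.0 in ΔRS-res whole-cell RNA. In the cytoplasm SOD1 was at 220.4, 269.2 and 260.8 CPM in WT-res, against 297.2, 329.7 and 257.3 in ΔRS-res. The lines overlapped in both fractions, with log2 fold changes of 0.07 (SE 0.0749, adjusted p = 0.778) in whole-cell RNA, also 0.07 (SE 0.0783) without that library, and 0.24 (SE 0.114, adjusted p = 0.529) in the cytoplasm.

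Catalase, the peroxisomal enzyme, differed little between the lines. CAT (chr11:34438934-34472060, plus strand) was at 25.2, 25.3 and 29.5 CPM in WT-res, against 28.2, 29.1 and 31.4 in ΔRS-res whole-cell RNA. In the cytoplasm it was at 29.9, 29.8 and 31.4 CPM in WT-res, against 30.1, 32.8 and 33.5 in ΔRS-res. The lines overlapped in both fractions. The log2 fold change was 0.15 (SE 0.0948, adjusted p = 0.595, edgeR) in whole-cell RNA, 0.23 (SE 0.0809, adjusted p = 0.185) leaving out the library labelled WT-res replicate 3, and 0.08 (SE 0.0778, adjusted p = 0.81) in the cytoplasm.

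The glutathione peroxidases, which use glutathione to reduce hydrogen peroxide (GPX1) or lipid hydroperoxides in membranes (GPX4), were not called in all 6 libraries of either fraction. GPX4 (chr19:1103982-1106791, plus strand) was at 147.1, 151.3 and 193.0 CPM in WT-res, against 179.4, 166.7 and 199.3 in ΔRS-res whole-cell RNA. In the cytoplasm GPX4 was at 192.6, 180.5 and 203.6 CPM in WT-res, against 214.4, 223.3 and 227.2 in ΔRS-res, with no overlap. Its log2 fold change was 0.15 (SE 0.123, adjusted p = 0.691, edgeR), 0.29 (SE 0.0871, adjusted p = 0.138) leaving out the library labelled WT-res replicate 3, and 0.21 (SE 0.0719, adjusted p = 0.331) in the cytoplasm. GPX1 (chr3:49357174-49358605, minus strand) ranged from 53.9 to 64.0 CPM in whole-cell RNA and from 63.2 to 80.8 CPM in the cytoplasm, with the lines interleaved. The log2 fold change of GPX1 was 0.06 (SE 0.0785) in whole-cell RNA, 0.02 (SE 0.0747) without that library, and 0.12 (SE 0.0982) in the cytoplasm.

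Among the genes of the peroxiredoxin and thioredoxin relay, TXN2 separated the lines in both fractions by a small amount. TXN2 (chr22:36467046-36481640, minus strand) was at 47.8, 47.3 and 46.5 CPM in WT-res, against 54.2, 51.8 and 50.0 in ΔRS-res whole-cell RNA. In the cytoplasm TXN2 was at 51.9, 57.7 and 54.1 CPM in WT-res, against 62.5, 66.2 and 61.8 in ΔRS-res. Every ΔRS-res library was above every WT-res library of its fraction. The log2 fold change of TXN2 was 0.14 (SE 0.0682, adjusted p = 0.467, edgeR) in whole-cell RNA, 0.13 (SE 0.0704, adjusted p = 0.361) leaving out the library labelled WT-res replicate 3, and 0.22 (SE 0.072, adjusted p = 0.288) in the cytoplasm, and none passed the test. The reductase TXNRD1 (chr12:104215779-104350307, plus strand) was at 241.4, 247.2 and 170.6 CPM in WT-res, against 230.7, 225.0 and 184.7 in ΔRS-res whole-cell RNA, so that replicate 3 was low in both lines. Its log2 fold change was -0.04 (SE 0.156), -0.19 (SE 0.102, adjusted p = 0.338) leaving out the library labelled WT-res replicate 3, and -0.11 (SE 0.102) in the cytoplasm, where it ranged from 223.2 to 299.3 CPM. None of these differences passed the test, and the TXNRD1 groups overlapped in both fractions with all libraries. PRDX3 (chr10:119167720-119178812, minus strand), the peroxiredoxin of the mitochondrial matrix, ranged from 263.8 to 314.6 CPM in whole-cell RNA and from 294.6 to 388.0 in the cytoplasm, and its log2 fold changes were -0.05 (SE 0.0817) and 0.04 (SE 0.117), with -0.10 (SE 0.0762) in whole-cell RNA leaving out the library labelled WT-res replicate 3. PRDX5 (chr11:64318121-64321811, plus strand), found in mitochondria, peroxisomes and cytosol, was at 44.4 to 65.3 CPM in whole-cell RNA and 50.4 to 75.9 in the cytoplasm, with log2 fold changes of 0.19 (SE 0.145), 0.35 (SE 0.103, adjusted p = 0.129) leaving out the library labelled WT-res replicate 3, and 0.24 (SE 0.121) in the cytoplasm.

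Levels of several members differed as much between libraries of a line as between lines. In whole-cell RNA, the library labelled WT-res replicate 3 and ΔRS-res replicate 3 each had the highest level of their group for CAT, SOD2, GPX4 and PRDX5. Both had the lowest for GPX1, PRDX3, TXN2 and TXNRD1. The first of these libraries went against its label, so a replicate effect shared by the lines cannot be told apart from that. For TXNRD1 the gap between WT-res replicate 2 (247.2 CPM) and the library labelled replicate 3 (170.6 CPM) was wider than any gap between the lines at the same replicate number. Within ΔRS-res, TXNRD1 was at 230.7, 225.0 and 184.7 CPM.

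As a group, 7 of the 10 members lay above 0 in whole-cell RNA, the median of their log2 fold changes being 0.10, and 8 of 10 in the cytoplasm, where it was 0.16, beside 0.0 over all genes in both. The groups did not overlap for 2 of 10 members in whole-cell RNA (TXN2 and NFE2L2; 18.9% of all genes), for 7 of 10 leaving out the library labelled WT-res replicate 3 (42.5%), and for 4 of 10 in the cytoplasm (SOD2, GPX4, TXN2 and NFE2L2; 17.2%).

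With the 4 cytoplasmic libraries that the study kept after its principal component analysis (replicates 1 and 3 of WT-res and 1 and 2 of ΔRS-res), 4 of the 10 members were called by edgeR, where 22.1% of 25810 genes were called. SOD1 rose by 0.39 on the log2 scale (SE 0.088, adjusted p = 0.0265), TXN2 by 0.29 (SE 0.0522, adjusted p = 0.0132) and GPX1 by 0.26 (SE 0.0556, adjusted p = 0.0211), and NFE2L2 fell by 0.53 (SE 0.0431, adjusted p = 0.00138). The 4 calls depended on which libraries were set aside. In the 8 other ways of removing 1 library of each line, 7 gave no call among the members and 1, without the replicates 1 of WT-res and 3 of ΔRS-res, called 1 member. Calls over all genes fell as well in these 8 ways, to 21 to 172 of 25709 to 26102 genes tested, with 172 in the way that called 1 member. Across these 8 ways the NFE2L2 difference stayed between -0.50 and -0.55, whereas that of SOD1 ran from 0.07 to 0.36, that of GPX1 from 0.01 to 0.21 and that of TXN2 from 0.15 to 0.27. Leaving 1 more of the 4 libraries out gave 1 call without ΔRS-res replicate 2, where 7.85% of genes were called, and 7 calls without WT-res replicate 3, where 24.1% were. In the 4 libraries the lines did not overlap for 6 of 10 members, beside 60.7% of all genes.

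**Figure D2:**
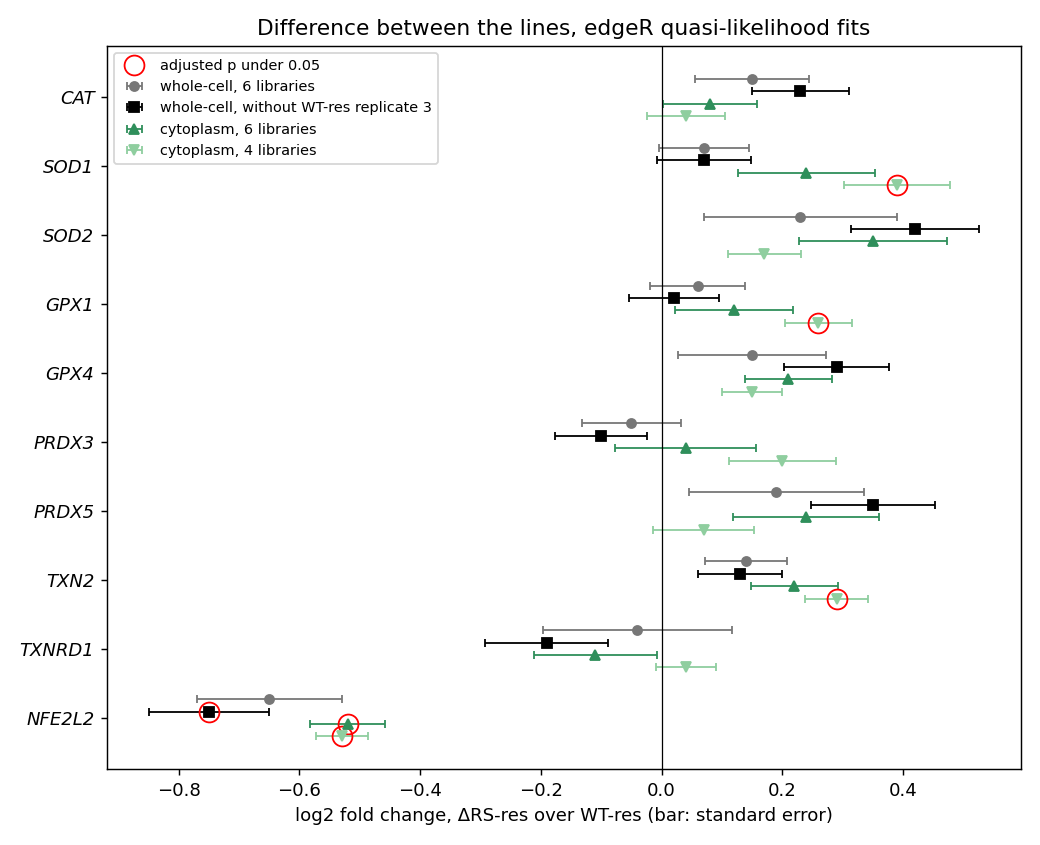
Log2 fold change of ΔRS-res over WT-res (horizontal axis, bars are standard errors) for each gene in whole-cell RNA with all libraries, and again leaving out the one labelled WT-res replicate 3, and in the cytoplasm with 6 or 4 libraries; red rings mark an edgeR adjusted p under 0.05. NFE2L2 lies between -0.52 and -0.75 in all 4 fits, and the other genes lie between -0.19 and 0.42.

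NFE2L2 moved with the genes around it. It is annotated on the minus strand of chromosome 2 (GRCh38, as for all positions given, chr2:177218667-177392756). Of the 53 other genes with a mean count of at least 100 whose annotated start coordinates lie within 5 Mb of that of NFE2L2, 50 were below 0 in the 6 cytoplasmic libraries, the median of their log2 fold changes was -0.57, and 24 were called. The difference of NFE2L2 was 0.05 above that median, and 32 of its neighbours were further down. In whole-cell RNA the median of the neighbours was -0.44 with all libraries, and -0.60 leaving out the library labelled WT-res replicate 3, when 28 of 53 were called. Around the other 9 members the median of the neighbours lay between -0.08 and 0.12 in whole-cell RNA and between -0.08 and 0.08 in the cytoplasm. Relative to the ΔRS-res mean, the NFE2L2 neighbours had a median of 0.56, 0.55 and 0.61 on the log2 scale in WT-res cytoplasmic replicates 1 to 3, beside 0.48, 0.52 and 0.56 for NFE2L2. In WT-res whole-cell replicates 1 and 2 the neighbours stood at 0.52 and 0.63 and NFE2L2 at 0.58 and 0.90, while in the library labelled replicate 3 they stood at 0.20 and NFE2L2 at 0.44. Whether the NFE2L2 level follows the region or its own regulation was not tested.

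The nearest tested genes showed the same picture where counts were high. HNRNPA3, which encodes a nuclear RNA-binding protein, fell in the ΔRS-res cytoplasm by 0.51 on the log2 scale (SE 0.0846, adjusted p = 0.0286, edgeR). The lncRNA ENSG00000229337 (-0.64, SE 0.3, adjusted p = 0.505) and the pseudogene DNAJC19P5 (-0.60, SE 0.322, adjusted p = 0.58) did not pass. The lncRNA ENSG00000222043, with a mean of 10.0 counts, was at 0.02 (SE 0.409). The annotated range of NFE2L2 overlaps HNRNPA3 and AGPS on the opposite strand, and that of SOD2 overlaps WTAP and ACAT2. The strand setting of the counting is not given in the sources used here, so reads in such overlaps may be shared. NFE2L2-201, the transcript with 81.9% of the NFE2L2 counts (chr2:177230308-177264727), and SOD2-215, with 75.1% of the SOD2 counts (chr6:159679064-159693241), lie outside these overlaps.

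Among the genes whose level followed NFE2L2 most closely over the 12 libraries, after centring log2 CPM within each fraction, were NCKAP1 (Pearson correlation 0.997), RPE (0.987), LNPK (0.985) and ATF2 (0.985). These 4, taken from 14936 genes with a mean count of at least 100, lie on chromosome 2. Their cytoplasmic log2 fold changes were between -0.42 and -0.64. The 12 points come from 2 lines and are not independent, and no test was made of these values.

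**Figure D3:**
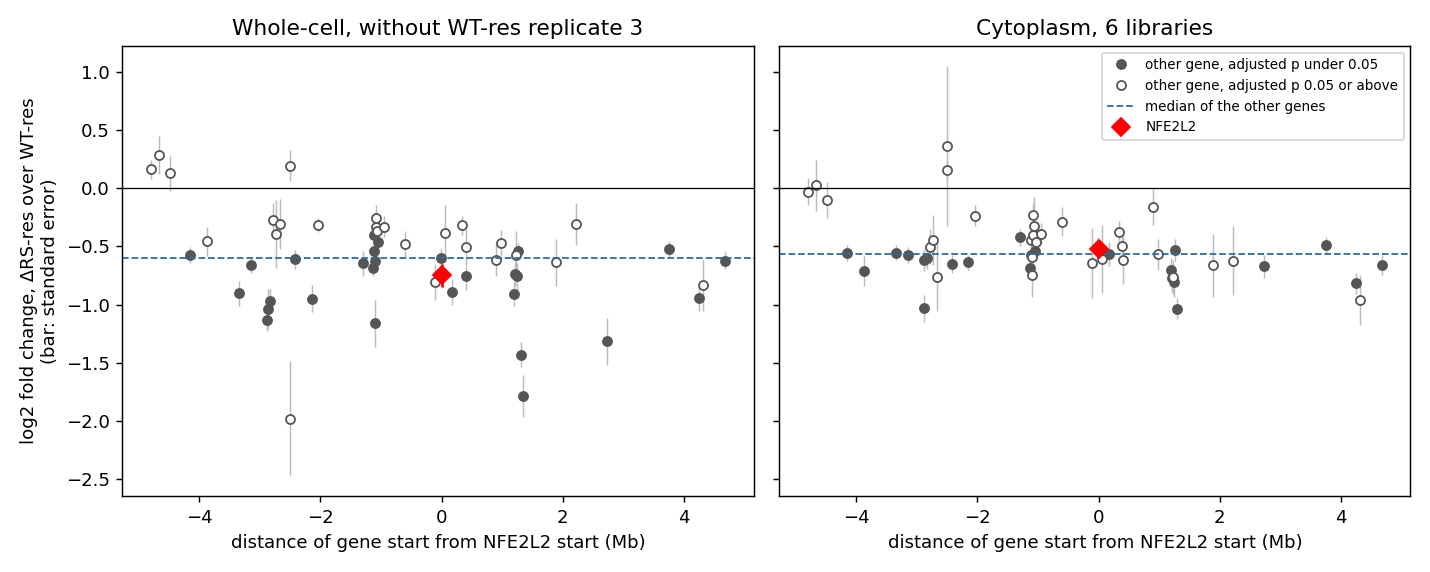
Log2 fold change of ΔRS-res over WT-res for NFE2L2 (red diamond) and the 53 genes with start coordinates within 5 Mb of its own (circles, filled where the adjusted p was under 0.05), against the distance between start coordinates in Mb; bars are standard errors and the dashed line is the median of the neighbours. NFE2L2 sits near that median, at -0.75 beside -0.60 in whole-cell RNA leaving out the library labelled WT-res replicate 3 and at -0.52 beside -0.57 in the cytoplasm.

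Other genes of the pathway were described with a list of 62 antioxidant and NRF2 genes that are no members, of which 58 were tested. SOD3, GPX2, GPX5 and GPX6 had at most 3 counts in any library. In the 6 cytoplasmic libraries 3 of 58 were called by edgeR (1.51% of all genes), 2 higher and 1 lower, and the median log2 fold change over the 58 was 0.04. These 3 calls became 0 without WT-res replicate 1, WT-res replicate 3, ΔRS-res replicate 1 or ΔRS-res replicate 2, 2 without WT-res replicate 2 and 1 without ΔRS-res replicate 3. PRDX2, a cytosolic peroxiredoxin, rose from 263.2 ± 12.6 to 349.6 ± 10.4 CPM (SD, n = 3), by 0.41 on the log2 scale (SE 0.0697, adjusted p = 0.0309). SELENOP, a secreted selenium carrier, rose by 1.59 (SE 0.266, adjusted p = 0.0285) at a low level, from 0.448 ± 0.153 to 1.34 ± 0.123 CPM. SELENOP lies at chr5:42799880-42887392. NNT, the list gene nearest to it (chr5:43602692-43707405), was named after its values were seen. It was at 0.84 (SE 0.199, adjusted p = 0.116, edgeR) and did not pass. Whether the SELENOP level follows its region was not tested. CUL3, the ubiquitin ligase scaffold that acts on NRF2, fell from 202.2 ± 13.1 to 147.5 ± 2.3 CPM, by 0.45 (SE 0.0714, adjusted p = 0.0218). CUL3 lies on chromosome 2, as NFE2L2 does, at chr2:224470150-224585397. KEAP1, the NRF2 adaptor of that ligase, was at 0.18 (SE 0.156, adjusted p = 0.784).

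In whole-cell RNA 0 of the 58 genes of the list were called by edgeR with all 6 libraries, 9 had an unadjusted p under 0.05, and DESeq2 called 5. Leaving out the library labelled WT-res replicate 3, 4 of 58 were called (2.06% of all genes). These were PRDX2 (0.41, adjusted p = 0.0242), SELENOP (1.73, adjusted p = 0.012), CUL3 (-0.71, adjusted p = 0.00953) and NQO1 (-0.83, adjusted p = 0.0336). NQO1, a quinone reductase widely used as a readout of NRF2, was named here after its values were seen, and its cytoplasmic log2 fold change was -0.43 (SE 0.238, adjusted p = 0.598). With the replicate number as a block, 11 of 58 were called, beside 7.95% of all genes. The other widely used NRF2 targets GCLM (0.06, SE 0.176), HMOX1 (-0.18, SE 0.267), SRXN1 (0.05, SE 0.0904), SLC7A11 (-0.43, SE 0.126) and the member TXNRD1 (-0.11, SE 0.102) did not pass in the 6 cytoplasmic libraries. These and KEAP1 were named after their values were seen. In the 4 libraries GCLM was called at 0.39 (SE 0.0597, adjusted p = 0.00743), SRXN1 at 0.17 (SE 0.0435, adjusted p = 0.0416) and KEAP1 at 0.47 (SE 0.0484, adjusted p = 0.00239) by edgeR, and SLC7A11, the cystine transporter, was called lower at -0.63 (SE 0.0539, adjusted p = 0.00158). In whole-cell RNA SLC7A11 was at -0.58 (SE 0.113, adjusted p = 0.211, edgeR), or -0.53 (SE 0.117, adjusted p = 0.0757) leaving out the library labelled WT-res replicate 3. In that fit GCLM was at -0.45 (SE 0.166), HMOX1 at -0.57 (SE 0.285), SRXN1 at -0.05 (SE 0.0705) and KEAP1 at 0.01 (SE 0.112), and none passed. In the 4 libraries of the study 28 of 58 were called (22.1% of all genes), 20 higher and 8 lower. Under each of the 8 other removals 0 of 58 were called by edgeR, where 21 to 172 of all genes were called.

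The core of the antioxidant response element, TGACNNNGC, was searched on both strands of the RefSeq promoter windows (GRCh38.p14, 250 bases before to 50 after each start). It was found in 13.3% of 35116 windows. Of the 8 members with a window, 1 (TXNRD1) held it, with 2 matches at its upstream start and 1 at a downstream start. Some members have more than 1 window, so a count of members and a share of windows are unlike measures. So few members cannot be told apart from the share over all windows, and whether NRF2 acts at these matches was not tested. They are shown because TXNRD1 is the member for which such an element can be read beside its values, with the match in capitals; it lies on the printed plus strand in site 1 and on the opposite strand in sites 2 and 3.
TXNRD1 site 1, chr12:104215670-104215698: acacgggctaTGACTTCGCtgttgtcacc
TXNRD1 site 2, chr12:104215761-104215789: gcgtccttcgGCTCCGTCAgttcccacag
TXNRD1 site 3, chr12:104286920-104286948: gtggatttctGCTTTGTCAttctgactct
A match to these letters is a description of the sequence and not a measured binding site. TXNRD1, with these matches, differed between the lines by -0.04 in whole-cell RNA (-0.19 leaving out the library labelled WT-res replicate 3) and by -0.11 in the cytoplasm on the log2 scale, while NFE2L2 itself differed by -0.65 (-0.75) and -0.52.

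At the level of transcripts, the study's threshold (unadjusted p under 0.05 and a log2 fold change above 0.5 in size) was passed by few member transcripts. In whole-cell RNA 3 of 94 tested transcripts passed (3.19%, beside 5.25% of all 129700 transcripts), in the 6 cytoplasmic libraries 8 of 96 (8.33%, beside 4.06%), and in the 4 libraries of the study 9 of 99 (9.09%, beside 8.78%). Transcripts of NFE2L2 made up 2 of 3, 5 of 8 and 5 of 9 of these. For the other 9 members 1 of 63 (1.59%), 3 of 62 (4.84%) and 4 of 62 (6.45%) passed. No member transcript reached an adjusted p under 0.05 by edgeR, a level reached by 0.0% of all transcripts in whole-cell RNA and in the 4 libraries and by 0.0241% in the 6. With a library left out, the 3, 8 and 9 transcripts became 7 without the whole-cell library labelled WT-res replicate 3 (6.28% of all transcripts), 5 without WT-res cytoplasmic replicate 2 and 5 without ΔRS-res cytoplasmic replicate 1, respectively.

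Of the 16 transcripts that carried at least 5% of their gene's counts, NFE2L2-201 (ENST00000397062, 2446 nt, the MANE Select transcript) was the only one past this threshold in any of the 3 comparisons, and it was past it in all of them. Its log2 fold change was -0.64 in whole-cell RNA (SE 0.152, adjusted p = 0.574, edgeR), -0.74 leaving out the library labelled WT-res replicate 3 (SE 0.144, adjusted p = 0.319), -0.53 in the 6 cytoplasmic libraries (SE 0.0783, adjusted p = 0.216) and -0.59 in the 4 libraries of the study (SE 0.0746, adjusted p = 0.178). Without that library SOD2-215 also passed in whole-cell RNA, at 0.55 (SE 0.133, adjusted p = 0.389). CAT-201 carried 97.1% of the CAT counts and was at 0.21 (SE 0.0938) in whole-cell RNA, 0.28 (SE 0.081) without that library, and 0.09 (SE 0.0911) in the cytoplasm. SOD1-201 (98.4% of its gene), GPX1-202 (97.8%), PRDX3-201 (98.8%), PRDX5-201 (96.1%) and TXN2-201 (90.4%) likewise carried nearly all counts, with log2 fold changes between 0.0 and 0.25 in whole-cell RNA, between -0.05 and 0.42 without that library, and between 0.05 and 0.25 in the 6 cytoplasmic libraries. TXNRD1 was split between TXNRD1-201 (37.0%), TXNRD1-204 (34.7%) and TXNRD1-210 (13.7%), none of which passed. GPX4-210 carried 85.7% of the GPX4 counts and the MANE Select transcript GPX4-201 8.13%, and TXN2-204 carried 7.52% of the TXN2 counts. These 3 did not pass either. In whole-cell RNA they were at 0.18 (SE 0.119), 0.31 (SE 0.303) and 0.25 (SE 0.171), or 0.31, 0.54 and 0.23 without that library. In the 6 cytoplasmic libraries they were at 0.22, 0.22 and 0.08.

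The minor transcripts that passed had low counts. TXNRD1-211, with 57.7 to 234.9 counts in a library, was at -0.93 (SE 0.236) in the 6 cytoplasmic libraries and -0.64 (SE 0.202) in the 4. In whole-cell RNA TXNRD1-211 passed only leaving out the library labelled WT-res replicate 3, at -0.70 (SE 0.215), beside -0.36 (SE 0.411). CAT-206, a transcript annotated as a target of nonsense-mediated decay with 13.8 to 52.2 counts, was at 0.84 in whole-cell RNA with all libraries and at -1.08 in the 4 cytoplasmic libraries. Leaving out the same library, CAT-206 was at 0.90 (SE 0.373, unadjusted p = 0.0586, edgeR) and did not pass. GPX4-209 was at 1.17 (SE 0.319) in the 6 cytoplasmic libraries, with 15.4 to 57.9 counts, and GPX4-203 at 0.75 (SE 0.248) in the 4. NFE2L2-220 (-0.79, SE 0.324) and NFE2L2-221 (-1.11, SE 0.412), with at most 203.0 counts, passed in the 6 cytoplasmic libraries. TXNRD1-212, NFE2L2-224, NFE2L2-246, NFE2L2-265 and NFE2L2-230 passed in at least 1 comparison but were at 0 in 6 to 8 of the 12 libraries and reached at most 114.4 counts, so that no fold change is given.

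All 10 members had a higher level in cytoplasmic than in whole-cell libraries, in each of the 3 same-numbered pairs of both lines. Such a pattern was seen for 30.8% of all genes in WT-res and 34.1% in ΔRS-res. In WT-res 7 of 10 members were called higher by edgeR, with 16.9% of 26687 genes called higher. In ΔRS-res 6 of 10 were called higher, with 16.6% of genes. NFE2L2 was the most enriched, by 0.76 on the log2 scale in WT-res (SE 0.0937, adjusted p = 5.5e-05) and by 0.87 in ΔRS-res (SE 0.094, adjusted p = 1.61e-05). TXNRD1 followed in WT-res at 0.43 (SE 0.138, adjusted p = 0.0264), with pairs at 0.21, 0.37 and 0.75, and GPX1 in ΔRS-res at 0.38 (SE 0.0863, adjusted p = 0.00408). The median over the 10 members was 0.30 in WT-res and 0.35 in ΔRS-res, beside -0.05 and -0.06 over all genes. Over the 58 other pathway genes it was 0.25 and 0.26, with 81.0% and 82.8% of them above 0. These values are relative to the typical gene, which TMM sets equal between libraries. Of the 58 other pathway genes, 19 were called higher and 7 lower in WT-res, and 21 and 6 in ΔRS-res. The share of counts from the mitochondrial genome also differed between the fractions (above), and its part in these values was not tested.

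TXN2 was enriched by 0.30 (SE 0.0616, adjusted p = 0.00204) in WT-res and 0.37 (SE 0.0616, adjusted p = 0.000491) in ΔRS-res by edgeR, and GPX4 (0.32 and 0.36), GPX1 (0.33 and 0.38) and PRDX3 (0.29 and 0.37) also rose in both lines. SOD2 (0.22 and 0.33) and PRDX5 (0.29 and 0.32) passed in neither line, CAT (0.28 and 0.20) and TXNRD1 (0.43 and 0.34) passed in WT-res, and SOD1 (0.18 and 0.33) passed in ΔRS-res. In the study's sample sheet same-numbered libraries of both fractions of a line come from the same cell pellet. With the pellet as a block 9 members were called higher in WT-res (22.5% of genes), all but SOD1 (0.17, SE 0.0706, adjusted p = 0.0698), and 10 in ΔRS-res (20.6% of genes). SOD2 then passed in both lines at 0.24 (SE 0.0783, adjusted p = 0.0314) and 0.32 (SE 0.0781, adjusted p = 0.00822), as did PRDX5 at 0.29 (SE 0.0707, adjusted p = 0.00796) and 0.32 (SE 0.0705, adjusted p = 0.00499). When the whole-cell library labelled WT-res replicate 3 was left out, 7 members were called in WT-res and all 10 in ΔRS-res, with 17.8% and 18.6% of genes called higher. In that fit SOD2 and PRDX5 gained the call in WT-res, at 0.42 and 0.46, and PRDX3 and TXNRD1 lost it, at 0.25 and 0.28. The ΔRS-res libraries are the same in both fits, which share 1 estimate of the spread. Calls in WT-res also fell to 3 without its cytoplasmic replicate 3 and to 4 without its whole-cell replicate 1, and calls in ΔRS-res fell to 4 without its whole-cell replicate 3 or its cytoplasmic replicate 2. Over all genes 2976 and 3622 were called higher in these WT-res fits, and 3857 and 3457 in these ΔRS-res fits, of 26603 to 26673 tested. No member differed between the lines in its cytoplasmic enrichment by the edgeR interaction term (adjusted p = 1.0 for each of the 10). With the pellet block the lowest adjusted p among the members was 0.773, for SOD1 at 0.15 (SE 0.0998, edgeR). Without the block 1 gene of 26687 was called (0.00375%) and 1472 had an unadjusted p under 0.05.

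**Figure D4:**
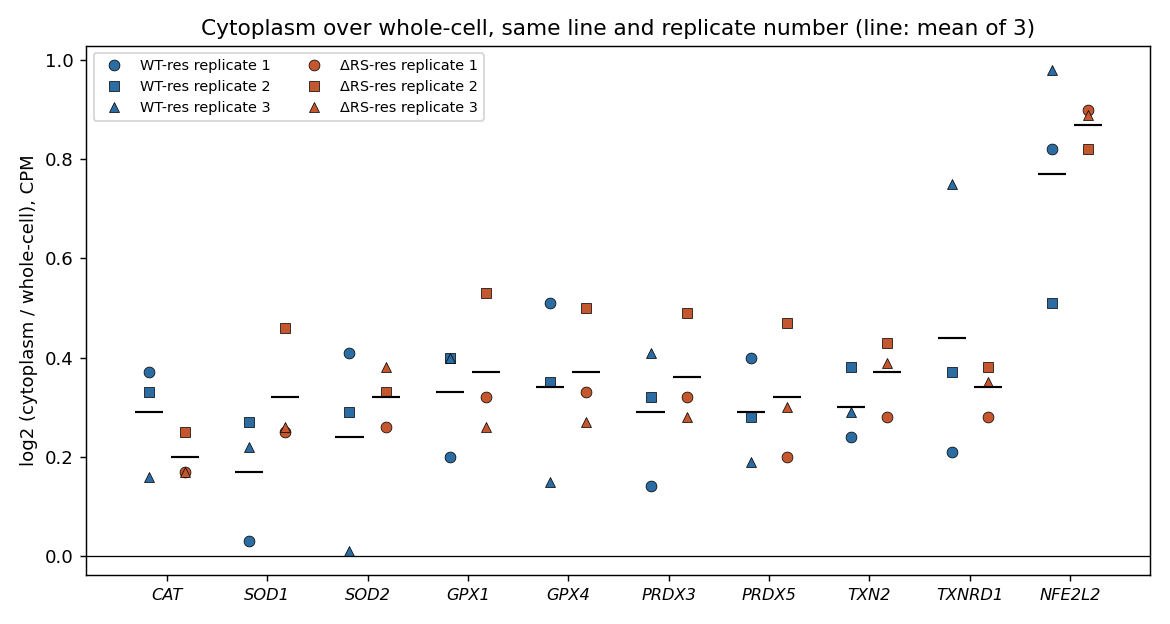
Log2 ratio of cytoplasmic to whole-cell CPM, scaled over all 12 libraries, for the pairs of the same line and replicate number; horizontal lines are means of 3 pairs. All points lie above 0, and NFE2L2 has the highest means, 0.77 in WT-res and 0.87 in ΔRS-res.

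The transcripts of NFE2L2 also differed between the fractions. NFE2L2-201 made up 70.1% to 76.2% of the gene's counts in the 6 whole-cell libraries and 85.2% to 87.6% in the 6 cytoplasmic ones. The retained-intron transcript NFE2L2-234 (ENST00000699329) made up 4.67% to 8.07% of whole-cell and 0.759% to 1.39% of cytoplasmic counts. NFE2L2-263 (ENST00000699433), also annotated with a retained intron, made up 2.03% to 3.06% and 0.402% to 1.08%. The fractions did not overlap for any of these transcripts. Between the lines the shares overlapped, with means of 73.2% ± 2.94 in WT-res and 71.7% ± 2.03 in ΔRS-res whole-cell RNA for NFE2L2-201.

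NFE2L2-234 keeps the third of the 4 introns of NFE2L2-201 (666 bases, chr2:177232584-177233249, minus strand) and begins within the first, and NFE2L2-263 keeps the second (665 bases, chr2:177233340-177234004). The splice sites of both introns are shown 5′ to 3′ because these introns separate the transcripts that lose share in the cytoplasm from the one that gains it, with the GT and AG at the intron's ends in capitals.
intron 3 donor, chr2:177233232-177233258: gacaatgagGTgaggtataaaataacc
intron 3 acceptor, chr2:177232575-177232601: atgccttatcaattttAGgtttcttcg
intron 2 donor, chr2:177233987-177234013: tactcccagGTacagagtactcagttc
intron 2 acceptor, chr2:177233331-177233357: gtcattcccttttatcAGgttgcccac
Each window holds 9 exonic bases and 18 intronic bases of the GRCh38 reference. NFE2L2-234 was lower in ΔRS-res in the cytoplasm, at -0.82 (SE 0.281, unadjusted p = 0.0252, adjusted p = 0.923, edgeR), from 107.1, 173.0 and 138.8 counts in WT-res and 95.5, 73.2 and 76.3 in ΔRS-res. In whole-cell RNA NFE2L2-234 was at -0.56 (SE 0.267). It passed the study's threshold there leaving out the library labelled WT-res replicate 3, at -0.79 (SE 0.166, adjusted p = 0.344, edgeR). NFE2L2-263 was lower in whole-cell RNA, at -0.68 (SE 0.255, unadjusted p = 0.0355, adjusted p = 0.676, edgeR), or -0.85 (SE 0.235, adjusted p = 0.443) leaving out the library labelled WT-res replicate 3. Both thus went the way of NFE2L2-201.

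Retained-intron transcripts were lower in share in the cytoplasm for other members as well. For CAT they made up 2.74% to 4.30% of whole-cell and 0.518% to 1.01% of cytoplasmic counts, and for PRDX3 1.89% to 2.47% and 0.475% to 0.635%. For TXNRD1 the shares were 0.273% to 0.396% and 0.0379% to 0.0664%. For GPX4 they overlapped, at 0.441% to 0.663% and 0.355% to 0.489%. For SOD2, with 1 such transcript, they were 0.132% to 0.330% and 0.0% to 0.0953%. The share was thus lower in every cytoplasmic than in every whole-cell library for NFE2L2, CAT, PRDX3, TXNRD1 and SOD2.

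SOD2 counts were assigned mainly to SOD2-215 (ENST00000546260, 4302 nt, 75.1% of the gene over all libraries), which the annotation types as a target of nonsense-mediated decay. SOD2-203 (990 nt) carried 15.7% and the MANE Select transcript SOD2-210 (14167 nt, with the same coding length of 666 bases as SOD2-203) 5.84%. SOD2-210 made up 7.16% to 12.4% of whole-cell and 2.28% to 5.4% of cytoplasmic counts, without overlap, and SOD2-215 made up 67.6% to 74.1% and 74.6% to 80.6%. Reads common to several transcripts of a gene were divided by estimation, and these shares rest on how the counting program divided them.

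**Figure D5:**
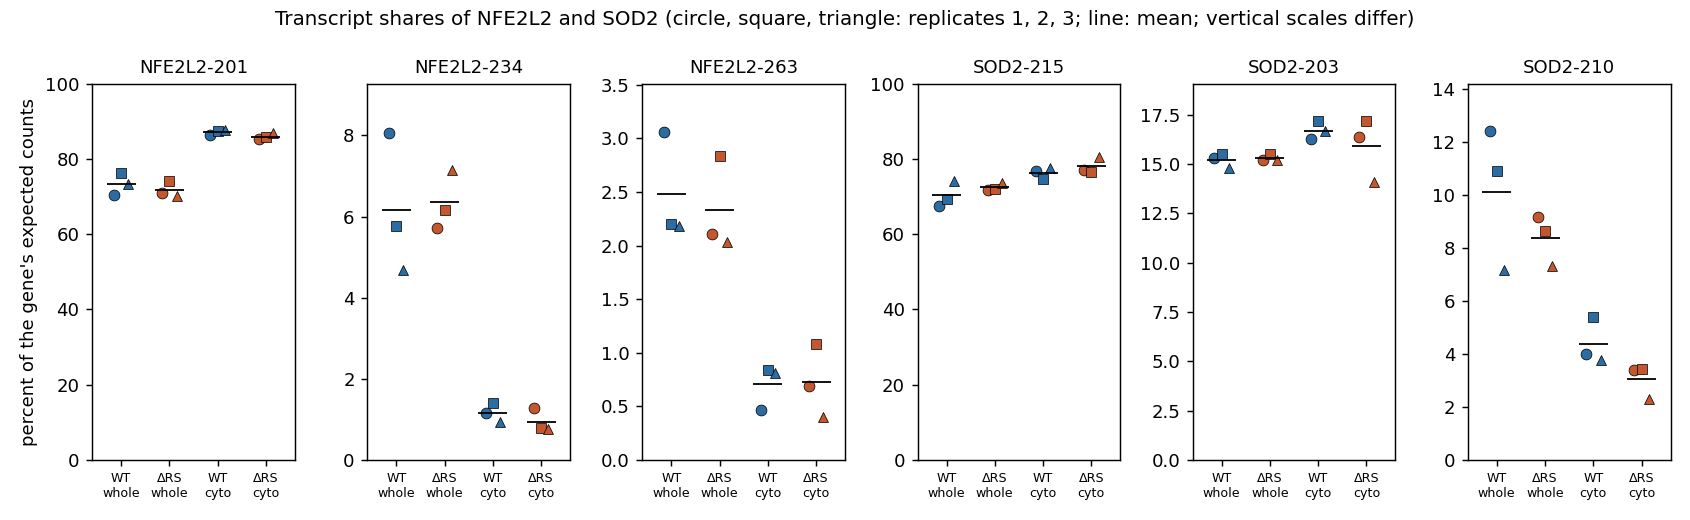
Share of the gene's expected counts assigned to 3 NFE2L2 and 3 SOD2 transcripts in the 12 libraries, in percent on vertical scales that differ between panels; circles, squares and triangles are replicates 1, 2 and 3, and lines are group means. NFE2L2-201 and SOD2-215 take a larger share in the cytoplasm, and NFE2L2-234, NFE2L2-263 and SOD2-210 a smaller one.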

How the data were processed

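Total and cytoplasmic RNA was depleted of rRNA and sequenced as paired reads. According to the methods, the authors trimmed reads with Trim Galore, aligned them to GRCh38 with STAR and deposited RSEM expected counts per transcript (Ensembl 107), in which reads shared by transcripts are divided by estimation, so that counts of minor transcripts are uncertain. Their comparisons used DESeq2. Expected counts were rounded per transcript here and summed per gene. Of the gene IDs, 99.83% were in GENCODE 44. The ID of SOD2 was matched through its transcripts. Genes or transcripts with a mean count above 2 were tested with edgeR 4.0.16 (TMM, quasi-likelihood test, R 4.3.3), the 6 libraries of a fraction in 1 fit, or all 12 for the interaction and fraction comparisons. Genes were called at a Benjamini-Hochberg adjusted p under 0.05, and transcripts at the study's threshold. DESeq2 1.42.0, other filters and left-out libraries were alternatives. No pair of the 12 libraries agreed within sampling noise (chi-square per gene of 15.8 or more). TPM values were computed from GENCODE exonic lengths and were not tested. Log2 fold changes are relative to the typical gene of a comparison, which TMM sets equal between libraries. The total counts limit precision mainly for minor transcripts.

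The members and lists were chosen with earlier results of these data known. Named in the text are all members, their transcripts with at least 5% of the gene's counts or past the study's threshold, list genes with an adjusted p under 0.05 in whole-cell or 6 cytoplasmic libraries, the 5 genes most like NFE2L2 (1 of them is not reported here) and its 2 nearest tested genes on each side. Same-numbered whole-cell libraries of the lines had correlations of 0.57, 0.578 and 0.692 in their deviations from group means. WT-res replicate 2 and ΔRS-res replicate 1 had 0.524, and the other differently numbered pairs -0.691 to 0.193. The fractions of a line are paired by the cell pellet in the study's sample sheet, although the methods give 1 well and 6 pooled wells, with correlations from -0.163 to 0.801. The fitting scripts were tested on simulated data.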

Additional observations from a re-analysis of the deposited data

How the results depend on the processing

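Results of the whole-cell comparison depended on the library labelled WT-res replicate 3 and on the block. Among members 0 were called in the whole-cell libraries, but 1, NFE2L2, by DESeq2, with the replicate block and in a joint fit of both fractions, and 0 to 1 with a library left out. Of the 58 pathway genes 0 were called there, but 5 by DESeq2, 11 with the replicate block and 3 in the joint fit, and 0 to 4 with a library left out. Over all genes the same fits called 0 of 26794, 1054, 2129 and 519 of 26687, and 0 to 551 with a library left out. In the 6 cytoplasmic libraries 1 member was called, 0 in the joint fit and 0 to 1 with a library left out, and of the pathway genes 3, but 6 by DESeq2, 5 with the replicate block, 0 in the joint fit and 0 to 2 with a library left out. Over all genes 393 of 25946 were called there, but 930 by DESeq2 and 519 with the replicate block. The joint fit called 13 of 26687, and 119 to 369 were called with a library left out. The 4 members and 28 pathway genes called in the 4 cytoplasmic libraries of the study became 0 or 1 member and 0 pathway genes when another library of each line was set aside, 0 and 1 in the joint fit, and 1 to 7 and 14 to 31 with a library left out. Over all genes 5704 of 25810 became 21 to 172 with another library of each line set aside. They became 368 of 26701 in the joint fit, and 2010 to 6349 with a library left out. Higher members in the cytoplasm numbered 7 in WT-res (3 to 7 with a library left out, and 20 to 27 pathway genes called) and 6 in ΔRS-res (4 to 10, and 19 to 29), the latter 10 by DESeq2 and 10 with the replicate block of the cell pellet. Over all genes 4516 were called higher in WT-res (2976 to 4745 with a library left out) and 4427 in ΔRS-res (3457 to 4962). In ΔRS-res DESeq2 called 5708 higher, and the pellet block 5501. The lines share only a replicate number in the cytoplasm, where correlations of same-numbered libraries ran from -0.467 to 0.637. Member transcripts past the study's threshold numbered 3, 8 and 9, but 0, 0 and 0 by the adjusted p, and 2 to 7, 5 to 8 and 5 to 12 with a library left out.

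Signs turned only in values that did not pass the test after turning (lowest adjusted p = 0.633). PRDX3 in the 4 libraries was called without WT-res replicate 3 (0.31, adjusted p = 0.0189). In the 4-library cytoplasmic comparison, with other libraries set aside, PRDX3 (0.20) came to -0.05, -0.14 and -0.05 and TXNRD1 (0.04) to -0.19, -0.22, -0.07, -0.08, -0.12, -0.15, -0.20 and -0.03. In the interaction, with the 4 cytoplasmic libraries of the study (an alternative added after the data were seen), SOD2 (0.11) came to -0.09, GPX4 (0.04) to -0.03, PRDX5 (0.03) to -0.15 and TXNRD1 (-0.09) to 0.06. With a library left out, whole-cell PRDX3 ran from -0.10 to 0.00096 and TXNRD1 from -0.19 to 0.05, cytoplasmic PRDX3 from -0.06 to 0.13, and in the 4 libraries CAT from -0.03 to 0.11, PRDX5 from -0.05 to 0.19 and TXNRD1 from -0.01 to 0.08. Interaction values so obtained ran from -0.09 to 0.22 for SOD2, -0.03 to 0.12 for GPX1, -0.11 to 0.11 for GPX4, -0.02 to 0.16 for PRDX3, -0.14 to 0.16 for PRDX5, -0.18 to 0.06 for TXNRD1 and -0.02 to 0.20 for NFE2L2. The causes were not tested. Under every alternative of the line comparisons NFE2L2 kept its negative sign.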
